A study of Monodelphis domestica and Mus musculus with 2 samples.

Results

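Microglia were taken here as the cells of the primary visual cortex (V1) that carried the microglia subclass label in the deposited cell tables of a marsupial, the gray short-tailed opossum, and of the mouse. The cells also had to lie in a marked V1 region and to pass the study's filter on shallow cells. They numbered 229 of the 13933 V1 cells, 32 of 4806 in opossum and 197 of 9127 in mouse. The study mapped RNA in place with Stereo-seq, which captures transcripts on a patterned chip and groups the captured molecules into segmented cells, and used it to compare the cell types of V1 between the species. The opossum was a male Monodelphis domestica of about 6 months (RNA integrity number 7.1), and the mouse was a male wild-type C57BL/6J at about postnatal day 40 (RNA integrity number above 9). Each species was represented by 1 chip with tissue of 1 animal, cut at 10 µm from a block in which several coronal slices lay together, with no treatment and no replicate, so no test between species was possible. The 3 opossum and 4 mouse V1 regions therefore share an animal and a chip, though not all come from the same coronal slice. Species also cannot be told apart from age, RNA integrity and chip.

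Microglia are the resident macrophages of the brain and arise outside the neural lineage. They depend on signalling through the colony-stimulating factor 1 receptor Csf1r, whose ligands are Csf1 and Il34, and they carry Cx3cr1, the receptor for the neuronal chemokine Cx3cl1, and P2ry12, a purinergic receptor that senses nucleotides around their processes. C1qa encodes a subunit of C1q, the first component of the classical complement pathway, which in the brain tags synapses for removal. These 4 genes were the markers given for the cells.

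The opossum chip held 80369 segmented cells with a median of 863 unique molecular identifiers (UMIs, counts of distinct transcripts), and the mouse chip 120239 cells with a median of 1134. The chips shared 0 cell barcodes. Microglia had a median of 979.5 UMIs in opossum (range 225 to 2689) and 1261 in mouse (range 113 to 3094), so a cell held few copies of any single gene. Levels are therefore given as UMIs per 10000, summed over the cells of a group and divided by all of their UMIs, with exact 95% Poisson intervals. Ratios carry exact 95% intervals from the binomial share of the UMIs, and all intervals cover counting error only. Microglia were compared within each species with the other non-neuronal cells, meaning astrocytes, oligodendrocytes, oligodendrocyte precursors (OPCs) and endothelial cells (and in mouse vascular leptomeningeal cells) whose class label was also non-neuronal, 632 cells in opossum (median 1175 UMIs) and 1264 in mouse (median 1268). The labels had been assigned from these same counts, so every ratio between microglia and other cells describes the label and tests nothing.

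Microglia made up 0.666% of opossum V1 cells (exact 95% interval 0.456 to 0.939%) and 2.16% of mouse V1 cells (1.87 to 2.48%). The opossum regions held 9, 14 and 9 microglia, or 0.485%, 0.805% and 0.743% of their cells. The mouse regions held 73, 43, 43 and 38, or 2.06%, 2.73%, 2.25% and 1.81%. Every mouse region thus had a higher share than every opossum region. Among cells with a non-neuronal subclass label, microglia were 2.55% of 1257 in opossum and 11.7% of 1687 in mouse. These are shares of segmented and labelled cells, not densities in the tissue. The paper drew no cell densities, absolute or relative, from its Stereo-seq data, because transcripts may drop out, possibly more in opossum. The difference in share between the species was not tested.

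The class label, which was given separately from the subclass label, did not always call these cells non-neuronal. In mouse, 163 of 197 microglia (82.7%) had the non-neuronal class label, 30 (15.2%) the glutamatergic and 4 (2.03%) the GABAergic label. In opossum, 17 of 32 (53.1%) were non-neuronal by class and 15 (46.9%) glutamatergic. Opossum microglia stood between the other glial and vascular subclasses in this respect, since 72.5% of opossum astrocytes, 40.7% of oligodendrocytes, 29% of OPCs and 21.5% of endothelial cells had the non-neuronal class label. In mouse the same shares were 96.0%, 81.8%, 69.0% and 83.1%. The subclass labels had been transferred in 3 rounds, with the required agreement among neighbours lowered each time. Of the mouse microglia, 46 were labelled in round 1, 62 in round 2 and 89 in round 3, and of the opossum microglia 9, 14 and 9.

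The labelled cells were first described by the 4 given markers, which is no independent check, since the labels came from these same counts. In mouse, Csf1r, Cx3cr1, P2ry12 and C1qa together gave 125 UMIs in microglia, a level of 4.89 (4.07 to 5.83), against 1.31 in the other non-neuronal cells, a ratio of 3.75 (2.98 to 4.69). The level lay at 5.32, 4.17, 5.08 and 4.63 in the microglia of the 4 regions and at 1.14, 1.69, 1.42 and 1.24 in the other non-neuronal cells, so the groups did not overlap over regions. The other mouse subclasses of at least 25 cells ranged from 0.374 in layer 5 near-projecting neurons to 1.50 in Vip interneurons, and microglia stood above all of them.

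In opossum the labelled cells showed the markers only weakly. The microglia held 7 marker UMIs in all, 3 of CSF1R and 4 of CX3CR1, a level of 1.95 (0.785 to 4.02) against 0.395 in the other non-neuronal cells and a ratio of 4.94 (1.84 to 11.4). P2RY12 and C1QA were at 0 among microglia, which allows a level of up to 0.836 for each. Both genes were near the floor everywhere. The whole opossum chip held 49 UMIs of P2RY12 and 302 of C1QA among 84570416, and the other non-neuronal cells held 0 and 5. A single cell carried 3 of the 7 UMIs, and without it the ratio was 3.04 (0.782 to 8.58). The regions held 5, 2 and 0 marker UMIs, and without region 1 the ratio was 1.92. The other opossum subclasses had lower levels, which ranged from 0 in layer 5 near-projecting neurons to 0.736 in endothelial cells. The cells are called opossum microglia below by their deposited label.

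**Figure D1:**
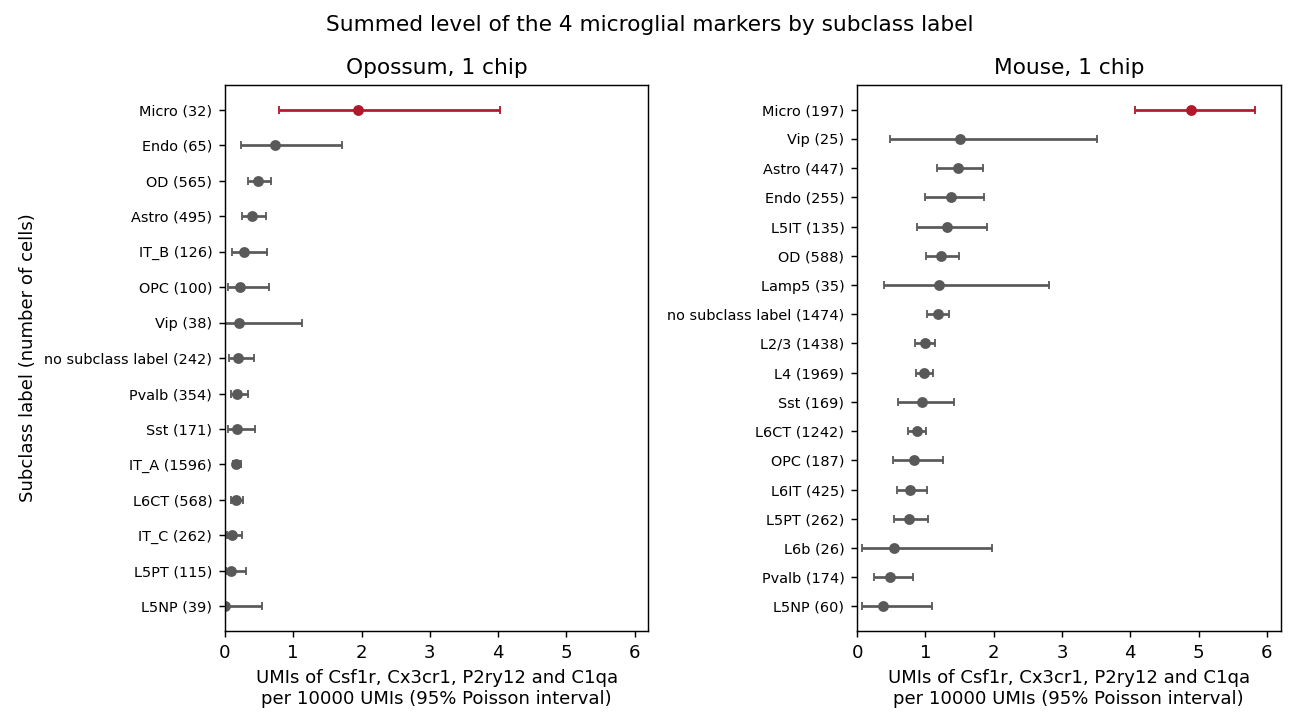
Summed level of Csf1r, Cx3cr1, P2ry12 and C1qa (UMIs per 10000, linear axis from 0) in each V1 subclass of at least 25 cells, with exact 95% Poisson intervals, opossum and mouse in separate panels. Microglia have the highest level in both panels, 1.95 in opossum from 7 UMIs and 4.89 in mouse from 125 UMIs.

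Most microglia held no marker UMI at this depth. In mouse, 128 microglia had 0 UMIs of the 4 markers, 37 had 1, 19 had 2 and 13 had 3 or more. At least 1 UMI was found in 35.0% of mouse microglia (69 of 197), in 12.1% of the other non-neuronal cells and in 10.1% of neurons, which should lack these transcripts and had a median of 1331 UMIs. In opossum the shares were 15.6% (5 of 32), 2.69% and 2.04%, the neurons having a median of 1429 UMIs. After each cell was thinned to 300 UMIs, leaving out 5 mouse and 3 opossum microglia as too shallow, the shares were 13.02% of mouse microglia against 2.64% of neurons. For opossum they were 3.45% (1 of 29 microglia) and 0.446%.

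The marker level differed with the round of labelling in mouse. It was 6.96 in microglia labelled in round 1, 5.91 in round 2 and 2.97 in round 3, and in the last it was still above the 1.31 of the other non-neuronal cells. By class label it was 4.91 in the non-neuronal and 3.94 in the glutamatergic microglia. In opossum the rounds held 1, 1 and 5 marker UMIs and the non-neuronal and glutamatergic classes 2 and 5, too few to order. With microglia of the non-neuronal class alone, the ratio of the 4 markers to the other non-neuronal cells was 3.76 in mouse and 3.23 in opossum.

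The 12-marker level was close in the larger classes of mouse microglia, at 13.9 (12.4 to 15.6) in the non-neuronal and 12.9 (9.52 to 17.0) in the glutamatergic ones. Single genes, chosen after their values were seen, were more varied. The non-neuronal microglia, which held 82.9% of all microglial UMIs, gave 28 of the 29 UMIs of the growth factor receptor Tgfbr1 (level 1.32, against 0.263 in the glutamatergic microglia), 34 of 35 of the phagocytic receptor Mertk and all 22 of the complement gene C1qc, and the 30 glutamatergic microglia held 0 of the last 2 genes. The lysosomal protease Ctss lay at 2.50 and 1.31 in these classes and P2ry12 at 1.89 and 1.31. The GABAergic class held 4 cells and gave 4 UMIs of P2ry12. In opossum the non-neuronal microglia held 8 and the glutamatergic microglia 4 of the 12 UMIs of ARHGAP15, and 31 and 28 of the 59 UMIs of the unnamed feature ENSMODG00000006948, both described below.

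Over all genes, mouse microglia differed little from the other non-neuronal cells at the depth reached. Of 2240 genes with a mean level of at least 1 over both groups, 10 (0.446%) were at least 2-fold higher in microglia and 10 (0.446%) at least 2-fold lower. Most microglial genes fell below that level, so counts of listed genes are given among the 10775 genes with at least 20 UMIs over both groups, of which 440 (4.08%) were at least 2-fold higher and 1175 (10.9%) at least 2-fold lower. Against that background, 11 of the 12 listed microglial marker genes had 20 UMIs and all 11 were at least 2-fold higher, with a median ratio of 3.36 beside a median of 0.975 over all of those genes. The exception in depth was Aif1, the cytoplasmic calcium-binding protein often stained as Iba1, with 3 UMIs. Among the 11, the intervals of Trem2 (2.04, 0.585 to 5.84), C1qb (2.11, 0.967 to 4.27) and Tmem119 (2.25, 0.980 to 4.76) included 1. Leaving out 1 region took these ratios as low as 1.27, 0.752 and 1.69.

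Among mouse receptors, P2ry12 had the highest lower bound of the ratio of any gene past the level filter. It gave 27, 6, 8 and 8 UMIs in the microglia of the 4 regions, or levels of 2.93, 1.14, 1.27 and 1.68, against 0.256, 0.196, 0.601 and 0.434 in the other non-neuronal cells. The microglia were higher in each region, with a pooled ratio of 5.34 (3.58 to 7.92), which was 3.10 without region 1. The gene lies on chromosome 3 at 59123682 to 59170429 on the minus strand (GRCm39, GENCODE vM39). Cx3cr1, on chromosome 9 at 119877749 to 119898945, gave levels of 1.19, 0.948, 1.91 and 1.89 against 0.399, 0.470, 0.382 and 0.434, a ratio of 3.51 (2.29 to 5.30) and again higher in each region. Csf1r gave 4, 7, 10 and 2 UMIs, and its ratio of 3.42 (1.97 to 5.78) held in each region, but in region 4 the levels of 0.420 and 0.260 lay close together. Tgfbr1, a receptor for transforming growth factor β, the signal that maintains the microglial state, had 29 UMIs in the 197 microglia and 29 in the 1264 other cells, a ratio of 6.54 (3.77 to 11.3). It was higher in each region, at 0.977, 1.90, 1.11 and 0.631 against 0.171, 0.196, 0.191 and 0.145. Among neurons, however, Vip interneurons had a Tgfbr1 level of 1.20, beside 1.14 in microglia.

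Of the 20 listed surface receptors, 5 had 20 UMIs and 3 of these, Tgfbr1, Selplg and Gpr34, were at least 2-fold higher. The P-selectin ligand Selplg gave 12 UMIs (ratio 3.02, 1.39 to 6.19) and the lysophosphatidylserine receptor Gpr34 gave 9 (4.90, 1.82 to 12.7). Gpr34 was at 2.37 without region 1 and Selplg at 4.80 without region 2. Tgfbr2, which pairs with Tgfbr1, lay just below 2-fold at 1.99 (0.721 to 4.79). Several receptors below 20 UMIs were also higher, among them the sialic acid receptors Cd33, with 11 UMIs against 5 (14.4, 4.61 to 52.8), and Siglech, with 8 against 10 (5.23, 1.79 to 14.7). Clec7a, Tlr4, Havcr2 and P2ry13 were at 0 in mouse microglia.

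Complement and phagocytosis genes followed. The 3 C1q genes were each at least 2-fold higher, C1qa at 2.32 (1.23 to 4.19), C1qb at 2.11 (0.967 to 4.27) and C1qc at 3.78 (2.13 to 6.56), and the C1qb value rested on region 3, without which it was 0.752. C1qa lies on chromosome 4 at 136623223 to 136626161 on the minus strand. Its level of 0.626 in microglia was below the 0.961 of Lamp5 interneurons. Downstream complement genes were near the limit of detection, with 1 UMI of C3, 4 of Itgam, 1 of Itgb2 and 0 of C3ar1 and C5ar1. Of the 13 genes of Fc receptors and phagocytosis, 6 had 20 UMIs and 4 were at least 2-fold higher. These were Mertk, a receptor for apoptotic cells (35 UMIs, ratio 2.43, 1.60 to 3.62), the Fc receptor-like gene Fcrls (2.56, 1.04 to 5.74), the Fc receptor Fcgr3 (2.06, 0.675 to 5.38) and the Src-family kinase Lyn (5.35, 1.96 to 14.2). Mertk was nonetheless at a higher level in astrocytes (1.61) than in microglia (1.37). Fcgr3 fell to 0.903 without region 3, and Fcrls to 1.27 without region 1. Axl, another receptor for apoptotic cells, was lower, with 1 UMI and a ratio of 0.284.

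The lysosomal list was split. Of its 15 genes, all of which had 20 UMIs, 3, Ctss and Laptm5 among them, were at least 2-fold higher, 1 was at least 2-fold lower and 11 lay between. The protease Ctss gave 58 UMIs (3.36, 2.40 to 4.64) and the lysosomal membrane protein Laptm5 32 (2.99, 1.90 to 4.60). General lysosomal genes were closer to 1, such as Ctsd at 1.39 (1.11 to 1.72), Lamp1 at 1.35 (1.07 to 1.69), Cst3 at 1.12 (1.01 to 1.24) and Psap at 0.931 (0.817 to 1.06). The tetraspanin Cd63 was the lower gene, at 0.327 (0.129 to 0.691), or 0.501 without region 1.

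Of 16 listed genes that activated microglia are known to express, 8 had 20 UMIs in mouse. Of these, 0 were at least 2-fold higher, against a background of 4.08%, and 2, Cd63 and Axl, at least 2-fold lower, against 10.9%, which for so few genes is no result about the list. Below 20 UMIs the glycoprotein Gpnmb gave 3 UMIs, all in region 3, against 2 in the other non-neuronal cells (9.81, 1.12 to 117). Apoe, an apolipoprotein made mainly by astrocytes in the healthy brain, gave 72 UMIs and a ratio of 0.729 (0.563 to 0.931), and the ferritin heavy chain Fth1 gave 561 and 0.874 (0.799 to 0.955). Spp1 had 1 UMI, and Cst7, Itgax, Lgals3, Ccl3 and Ccl4 had 0. The class II antigen presentation genes H2-Aa, H2-Ab1 and H2-Eb1 were at 0, and the class I gene H2-D1 lay at 1.27 (0.477 to 2.90). Of the interferon-response list, 0 of 6 genes reached 20 UMIs.

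Among 13 mouse transcription factors, 6 had 20 UMIs and 1 was at least 2-fold higher. This was Maf, a macrophage factor, with 18 UMIs (3.68, 1.94 to 6.75). Its level of 0.705 in microglia was below the 1.03 of Pvalb interneurons. Mef2c, which neurons also express strongly, gave 180 UMIs and 1.29 (1.09 to 1.51). Below 20 UMIs, Ikzf1, a lymphoid and myeloid factor, gave 8 UMIs against 6 (8.72, 2.65 to 30.5), and Spi1, the myeloid master regulator PU.1, gave 3 against 4. The phosphatase Inpp5d, which acts downstream of immune receptors, gave 9 against 8 (7.35, 2.52 to 21.9).

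The fixed rule on the lower bound of the ratio named 15 mouse genes, among them P2ry12 and Ctss and 12 genes that are not microglial markers on any list. Of the 15, 9 had a level under 1 in the other non-neuronal cells and passed the level filter through the microglia. Epb41l2, a membrane cytoskeleton protein, led these, with 56 UMIs and levels of 2.60, 1.14, 1.91 and 2.94 against 0.797, 0.941, 0.519 and 0.723, a ratio of 2.95 (2.11 to 4.08). It was higher in each region, though region 2 was close. The endoplasmic reticulum stress sensor Atf6 lay at 2.31 (1.66 to 3.18), the co-chaperone Bag1 at 2.41 (1.62 to 3.50) and the Slit-Robo pathway protein Srgap2 at 2.31 (1.62 to 3.24). Srgap2 was uneven, with 22, 18, 5 and 2 UMIs over the regions. Its levels were 2.39, 3.41, 0.794 and 0.420 against 0.797, 0.392, 0.955 and 0.926, so microglia were lower in regions 3 and 4. The others were Uchl5, Tbpl1, Acsl5, Rpl34, Hnrnph2, Osbpl8, Rbbp7 and 6330403K07Rik, at ratios of 1.74 (6330403K07Rik) to 2.20 (Uchl5). Of the 15 genes, 8 overlap another annotated gene on the same strand (Ctss, Epb41l2, Atf6, Srgap2, Uchl5, Tbpl1, Acsl5 and Osbpl8), and Rpl34 has near-identical pseudogenes, so their counts are uncertain.

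The 10 mouse genes with the lowest upper bound included the myelin genes Mag at 0.349 (0.211 to 0.546) and Mobp at 0.477 (0.368 to 0.608). Mag was lower in 3 of 4 regions, since region 2 held 10 of its 20 UMIs, at 1.90 against 1.69. Gpc5, a glypican, had the lowest upper bound, at 0.232 (0.129 to 0.387). Tnr, a matrix glycoprotein of oligodendrocyte-lineage cells, lay at 0.382 (0.227 to 0.607) and Zbtb20, a transcription factor of astrocytes, at 0.415 (0.268 to 0.616). The nuclear RNAs Malat1 (308 UMIs, 0.573, 0.508 to 0.644) and Neat1 (17 UMIs, 0.397, 0.228 to 0.647) were also lower, beside Sept4 and Luzp2. Of these 10 genes, 7 overlap another gene on the same strand.

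**Figure D2:**
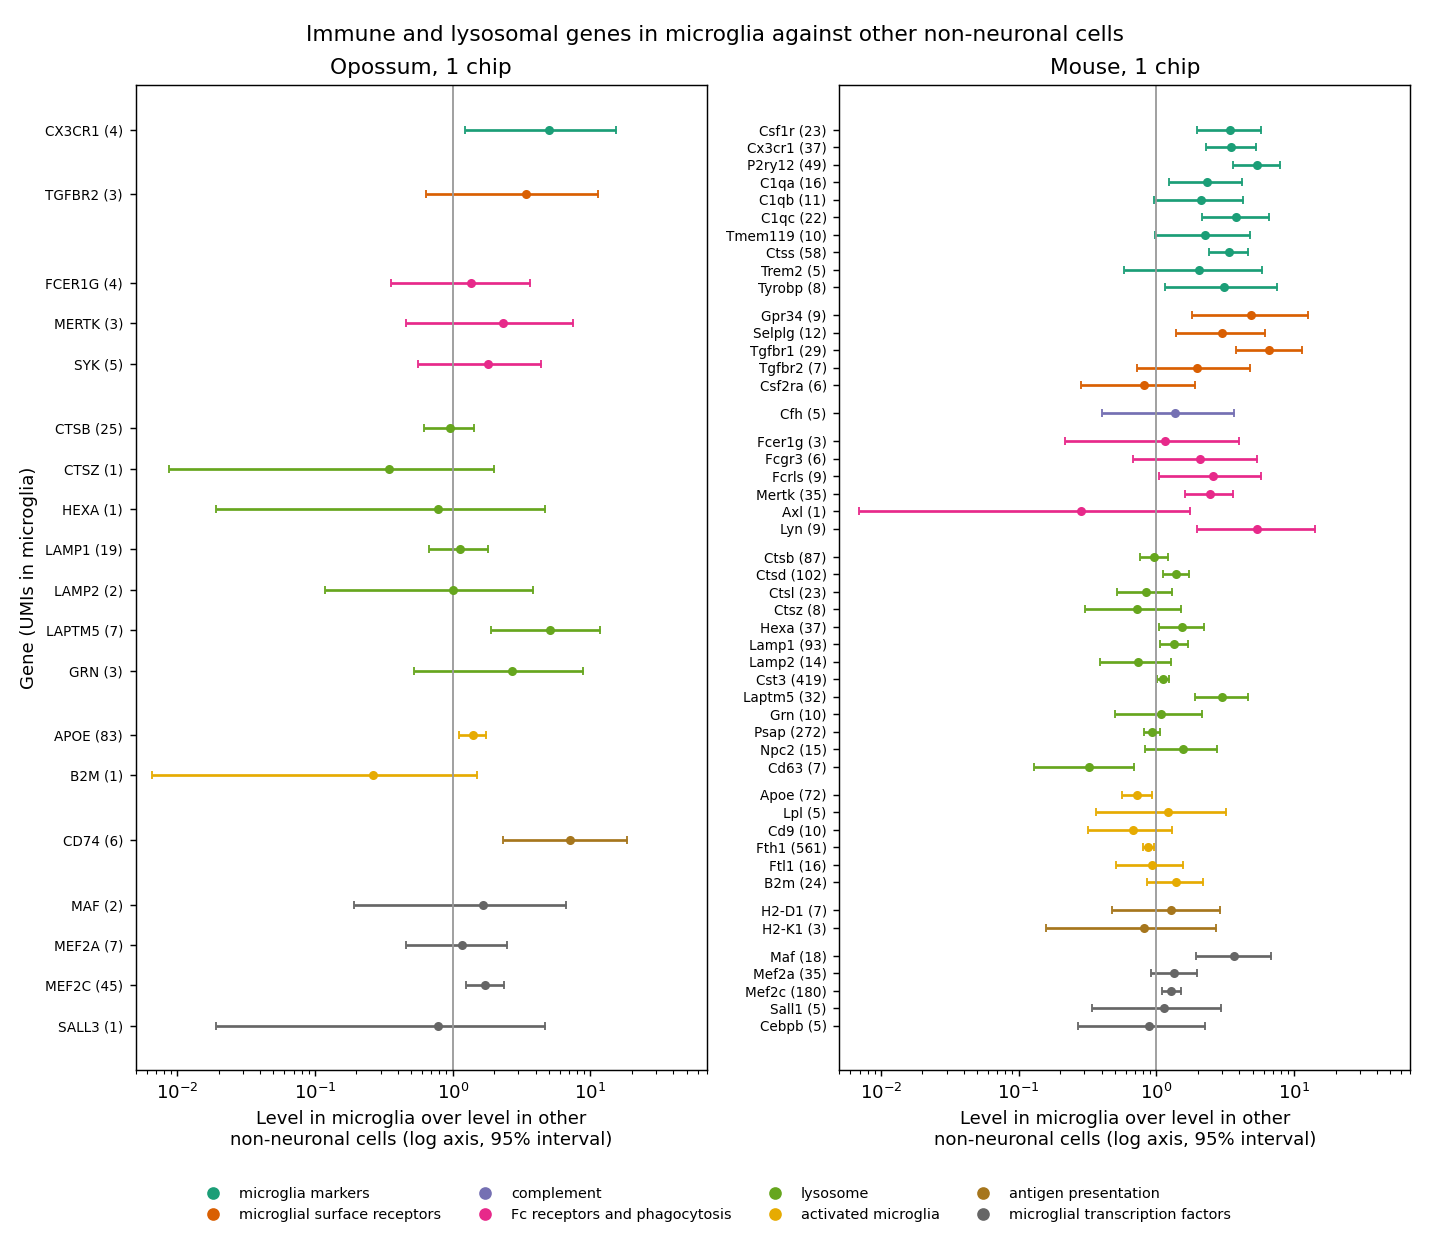
Ratio of the level in microglia to that in the other non-neuronal cells (log axis, 1 marked) for most listed microglial genes with at least 20 UMIs over both groups, with exact 95% intervals, coloured by list, opossum and mouse in separate panels. Mouse markers such as P2ry12 (5.34) and Cx3cr1 (3.51) lie to the right of 1, whereas opossum intervals are wider, as for LAPTM5 (5.10, 1.89 to 11.8).

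Opossum microglia held 35867 UMIs in all, and the list of comparable genes was shorter, since 112 of the 192 listed genes had a feature of that symbol in the opossum table. Of 2369 genes past the level filter, 335 (14.1%) were at least 2-fold higher in microglia and 191 (8.06%) at least 2-fold lower. Because 1 UMI among opossum microglia was already a level of 0.279, a gene could pass this filter through the microglia alone. Of 7477 genes with at least 20 UMIs over both groups, 872 (11.7%) were at least 2-fold higher and 2410 (32.2%) at least 2-fold lower. The other non-neuronal cells held 809770 UMIs, so a gene could pass this filter through them alone. In this background a gene with 0 UMIs in microglia counts as lower, so the 32.2% cannot be read as genes shown to be lower. Of the 7 marker genes with a feature, 2 had 20 UMIs and 1 was at least 2-fold higher, which is too few to set against that background. CX3CR1 gave 3, 1 and 0 UMIs over the regions (ratio 5.02, 1.24 to 15.2, and 1.60 without region 1). CSF1R gave 2, 1 and 0 UMIs (7.53, 1.31 to 30.2) and CTSS 2 against 1 in all other non-neuronal cells. For the 7 of the 12 markers with a feature, the microglial level was 3.07 from 11 UMIs against 0.864. The ratio was 3.55 (1.69 to 6.74), and it was 1.06 after thinning to 300 UMIs.

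Among opossum genes with a symbol, ARHGAP15 had the highest lower bound of the ratio. This Rac GTPase-activating protein of blood cells gave 6, 2 and 4 UMIs in the microglia of the 3 regions, or levels of 6.82, 1.13 and 4.30, against 0.0689, 0.183 and 0 in the other non-neuronal cells. It was higher in each region, in 7 of 32 microglia, with a ratio of 30.1 (11.6 to 80.9) and 1 cell holding 4 UMIs. The ratio was 16.5 without region 1 and 118 without region 2. No other opossum subclass exceeded 0.585. SLCO2B1, an organic anion transporter, gave 1, 3 and 3 UMIs in 4 cells, or levels of 1.14, 1.69 and 3.23 against 0.172, 0.209 and 0.294, a ratio of 9.30 (3.26 to 23.6). It too was higher in each region.

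Further immune and macrophage genes rested on few cells. The antigen presentation chaperone CD74 gave 4, 1 and 1 UMIs in 3 cells, 1 of which held 4, and a ratio of 7.13 (2.33 to 18.6), which was 2.40 without region 1 and 16.8 without region 2. LAPTM5 gave 7 UMIs in 2 cells of region 1 (5.10, 1.89 to 11.8) and 0 in the other regions. GRN, the progranulin gene, gave 0, 3 and 0 (2.71, 0.524 to 8.88). MERTK and TGFBR2 gave 3 UMIs each, at 2.34 (0.455 to 7.53) and 3.39 (0.644 to 11.4), and at 1.06 and 1.41 without region 3. TGFBR1, GPR34, CSF3R, ITGAM and AXL were at 0, each of which allows a level of up to 0.836.

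The remaining genes named by the rule in opossum were ZNF385B, ATP8A2, MRPL45, MMP15, MFSD13A, RPP25L, KHDC4, CRBN, CSMD2, GORASP1, SMARCD3, PRPF31 and TARS2, with ratios of 3.33 (SMARCD3) to 7.53 (ZNF385B and MMP15). They had 8 to 18 UMIs each in microglia. Of the 15 opossum genes named, 13 had a level under 1 in the other non-neuronal cells and passed the level filter through the microglia. ATP8A2, a phospholipid flippase, gave 1, 9 and 7 UMIs in 10 cells, or levels of 1.14, 5.07 and 7.53 against 0.896, 0.704 and 0.808, a ratio of 6.00 (3.29 to 10.4) that was slight in region 1. ZNF385B, a zinc finger gene, gave 7, 4 and 0 UMIs, and its level of 3.07 in microglia was below the 5.80 of the intratelencephalic neurons labelled IT_B. CSMD2, a membrane protein with complement-control domains, fell from 4.21 to 0.760 without region 2. Single regions decided other ratios too. Without region 1, TARS2 fell to 1.67, MMP15 to 3.20 and ZNF385B to 3.34, and without region 3, MFSD13A fell to 1.49, GORASP1 to 2.67 and RPP25L to 4.23. Without region 1 MFSD13A was at 10.7, and without region 2 MMP15 was at 14.99 and ZNF385B at 12.7.

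The second highest lower bound in opossum belonged to ENSMODG00000006948, a feature that the deposited table pairs with no symbol. It falls outside the naming rule, which required a symbol, and was chosen after its values were seen. It gave 16, 34 and 9 UMIs in the 3 regions, or levels of 18.2, 19.1 and 9.68, and a pooled level of 16.4 (12.5 to 21.2) against 1.56 (1.30 to 1.85) in the other non-neuronal cells, a ratio of 10.6 (7.62 to 14.5). It was present in 17 of 32 microglia (53.1%, 34.7 to 70.9%) against 13.9% of the other non-neuronal cells, with at most 8 UMIs in a cell. Neither class nor round of labelling removed it, with levels of 19.8 in non-neuronal and 13.9 in glutamatergic microglia and of 18.0, 14.7 and 16.9 in rounds 1 to 3. The other subclasses ranged from 0.146 in layer 5 near-projecting neurons to 2.35 in endothelial cells.

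**Figure D3:**
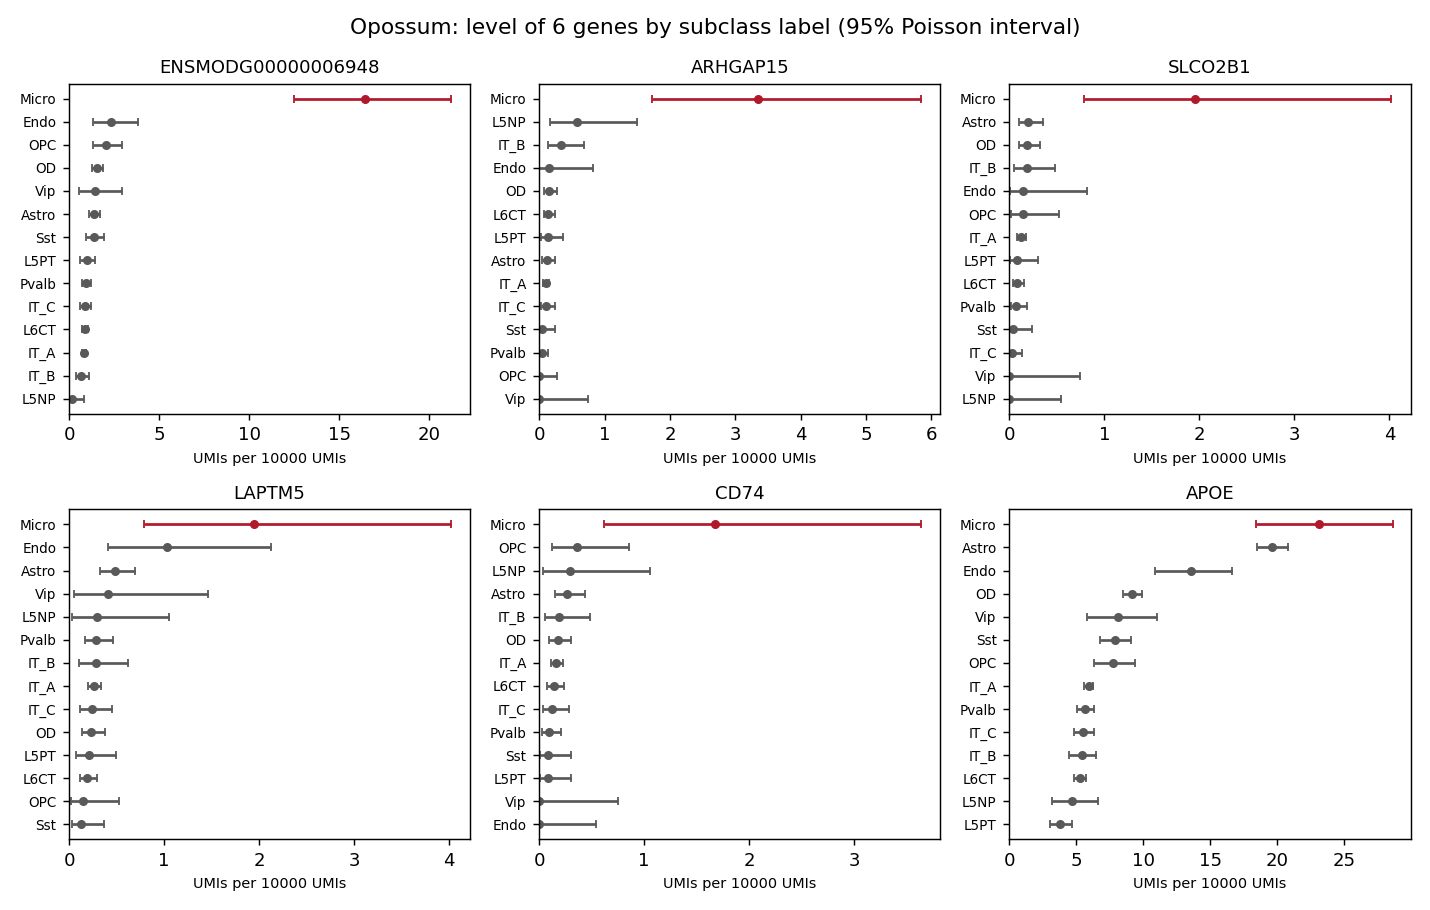
Level (UMIs per 10000, linear axis from 0) of ENSMODG00000006948, ARHGAP15, SLCO2B1, LAPTM5, CD74 and APOE in each opossum subclass of at least 25 cells, as points with exact 95% Poisson intervals. Microglia (red) are the highest in each panel, at 16.4 against at most 2.35 for ENSMODG00000006948 and 3.35 against at most 0.585 for ARHGAP15, while for SLCO2B1, LAPTM5, CD74 and APOE their interval overlaps that of another subclass.

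Among the 10 opossum genes with the lowest upper bound was SLC1A2, the astrocytic glutamate transporter. It gave 12 UMIs, or levels of 2.27, 3.94 and 3.23 in the regions, and a ratio of 0.195 (0.101 to 0.342) to the other non-neuronal cells. The myelin gene MOG was at 0, at least 2.52-fold lower. CAMSAP2, a microtubule minus-end protein, and PREX2, a Rac exchange factor, were also at 0, at least 3.04-fold and 2.44-fold lower. NPAS3, MLC1, LSAMP, ERBB4 and UGT8 were also among the 10, with ratios of 0.0806 (MLC1) to 0.262 (LSAMP). Without region 1, NPAS3 was at 0.205, ERBB4 at 0.298 and UGT8 at 0.0861. NPAS3 was at 0.0556 without region 3, and MLC1 and ERBB4 were at 0 without region 2.

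The microglia of both species held RNA typical of other cells. Opossum sums cover only the listed genes with a feature, so summed levels are not comparable between species. These were 5 of 6 neuronal synaptic, 4 of 6 glutamatergic neuron, 8 of 9 astrocyte, 6 of 8 oligodendrocyte and 4 of 8 endothelial genes. The summed synaptic level of mouse microglia was 57.7 against 56.5 in the other non-neuronal cells (ratio 1.02, 0.966 to 1.08). In opossum it was 48.5 against 50.7 (0.958, 0.818 to 1.11). The most abundant synaptic gene was Snap25, at 24.0 in mouse and 25.4 in opossum microglia. The glutamatergic neuron list was 44.2 against 40.5 in mouse (1.09, 1.02 to 1.16), and 74.2 against 48.7 in opossum (1.52, 1.34 to 1.72). There NRGN, the postsynaptic protein neurogranin, supplied 257 of the 266 UMIs. Its level of 71.7 in opossum microglia was above the 57.4 of IT_A neurons, the highest other subclass. Astrocyte genes were lower than in the other non-neuronal cells, at 0.843 (0.775 to 0.916) in mouse and 0.513 (0.431 to 0.607) in opossum. Oligodendrocyte genes were at 0.568 (0.527 to 0.612) and 0.456 (0.379 to 0.545). The comparison cells include astrocytes and oligodendrocytes, so these ratios start below 1 by design.

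The neuronal lists did not run one way with the class label. The synaptic level in mouse was 56.3 (53.2 to 59.6) in the microglia with the non-neuronal class label, 63.8 (56.1 to 72.4) in the glutamatergic and 68.1 (48.2 to 93.5) in the GABAergic ones, and in opossum 42.7 (33.1 to 54.3) in the non-neuronal and 53.0 (43.4 to 64.0) in the glutamatergic ones. The glutamatergic neuron list was instead higher in the non-neuronal opossum microglia, at 92.5 (78.1 to 108.8) against 59.9 (49.7 to 71.6), and lay at 44.2 and 45.7 in the same classes of mouse. The part of neighbouring neurons in the class label was not tested.

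Markers of other immune cells were scarce. Of the 9 border macrophage genes, 8 were at 0 in mouse microglia, including Mrc1, Cd163, Lyve1 and Pf4, and Stab1 gave 6 UMIs (3.92, 1.17 to 11.9). All 12 genes of other immune cells, such as Cd3e, Cd8a and S100a8, were at 0. In opossum, 5 border macrophage genes had a feature and all 5 were at 0, and of the 3 genes of other immune cells CD4 gave 1 UMI. The comparison cells also held few UMIs of these 2 lists, 36 and 5 in mouse and 8 and 1 in opossum. At such counts, 0 UMIs in microglia cannot show that such cells are absent. Endothelial genes were lower than in the comparison cells in mouse, at 0.548 (0.415 to 0.713), and lay at 1.22 (0.703 to 1.99) in opossum.

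Apoe moved in opposite directions in the species relative to the other non-neuronal cells. In opossum it gave 27, 39 and 17 UMIs, or levels of 30.7, 22.0 and 18.3, was found in 27 of 32 microglia, and lay at 1.40 (1.11 to 1.75), whereas the mouse ratio was 0.729. With 1 animal of each species this difference was not tested. Mef2c lay above 1 in both, at 1.73 (1.25 to 2.34) in opossum and 1.29 in mouse. Ctsb, a general lysosomal protease, lay at 0.963 in opossum (0.618 to 1.44) and 0.964 in mouse (0.761 to 1.21).

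Ligands of microglial receptors were measured in the same cells. Among 9 listed ligands, 7 had 20 UMIs in mouse, 0 were at least 2-fold higher in microglia and 1, Tgfb2, was at least 2-fold lower. Cx3cl1, the neuronal ligand of Cx3cr1, gave 205 UMIs and a level of 8.03 against 6.68 (ratio 1.20, 1.03 to 1.40). The "don't eat me" ligand Cd47 lay at 1.38 (1.06 to 1.78) and Il34, a ligand of Csf1r, at 1.02 (0.550 to 1.77). In opossum, CD47 gave 17 UMIs at 0.927 (0.535 to 1.50), and 6 of the 9 ligands had a feature.

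Position in V1 was not used by the label rule. Depth was measured from the upper edge of each region and scaled to the tallest region of its species, at 773.5 µm in opossum and 774.5 µm in mouse. Opossum microglia lay at a median of 203.5 µm (interquartile range 102.0 to 462.8), and 68.8% were above mid-depth. Their medians in the 3 regions were 158.2, 203.5 and 260.5 µm. All opossum V1 cells had a median of 381.9 µm, astrocytes 380.8, OPCs 352.7, endothelial cells 357.3 and oligodendrocytes 536.3, so the microglia of each region lay above all of these pooled medians.

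Mouse microglia were spread through the depth of V1. Their median was 387.4 µm (223.9 to 579.6), with region medians of 349.3, 410.8, 443.6 and 379.3 µm, beside 349.3 µm for all cells, 330.9 for astrocytes, 431.0 for OPCs, 418.2 for endothelial cells and 636.4 for oligodendrocytes. Those with the glutamatergic class label had a median of 198.4 µm and those with the non-neuronal class label 421.6 µm. In opossum the order was the other way, at 260.5 and 168.9 µm. The 4-marker level was 4.55 above and 5.18 below mid-depth in mouse microglia, and 1.67 and 2.52 in opossum.

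The myelin content of microglia followed their depth. The oligodendrocyte list lay at 23.7 in mouse microglia above mid-depth and 35.4 below it, beside 20.3 and 37.6 in all other cells. In opossum it was 26.3 and 51.1, beside 26.5 and 51.5. Thus microglia held oligodendrocyte RNA at about the level of the cells at the same depth.

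**Figure D4:**
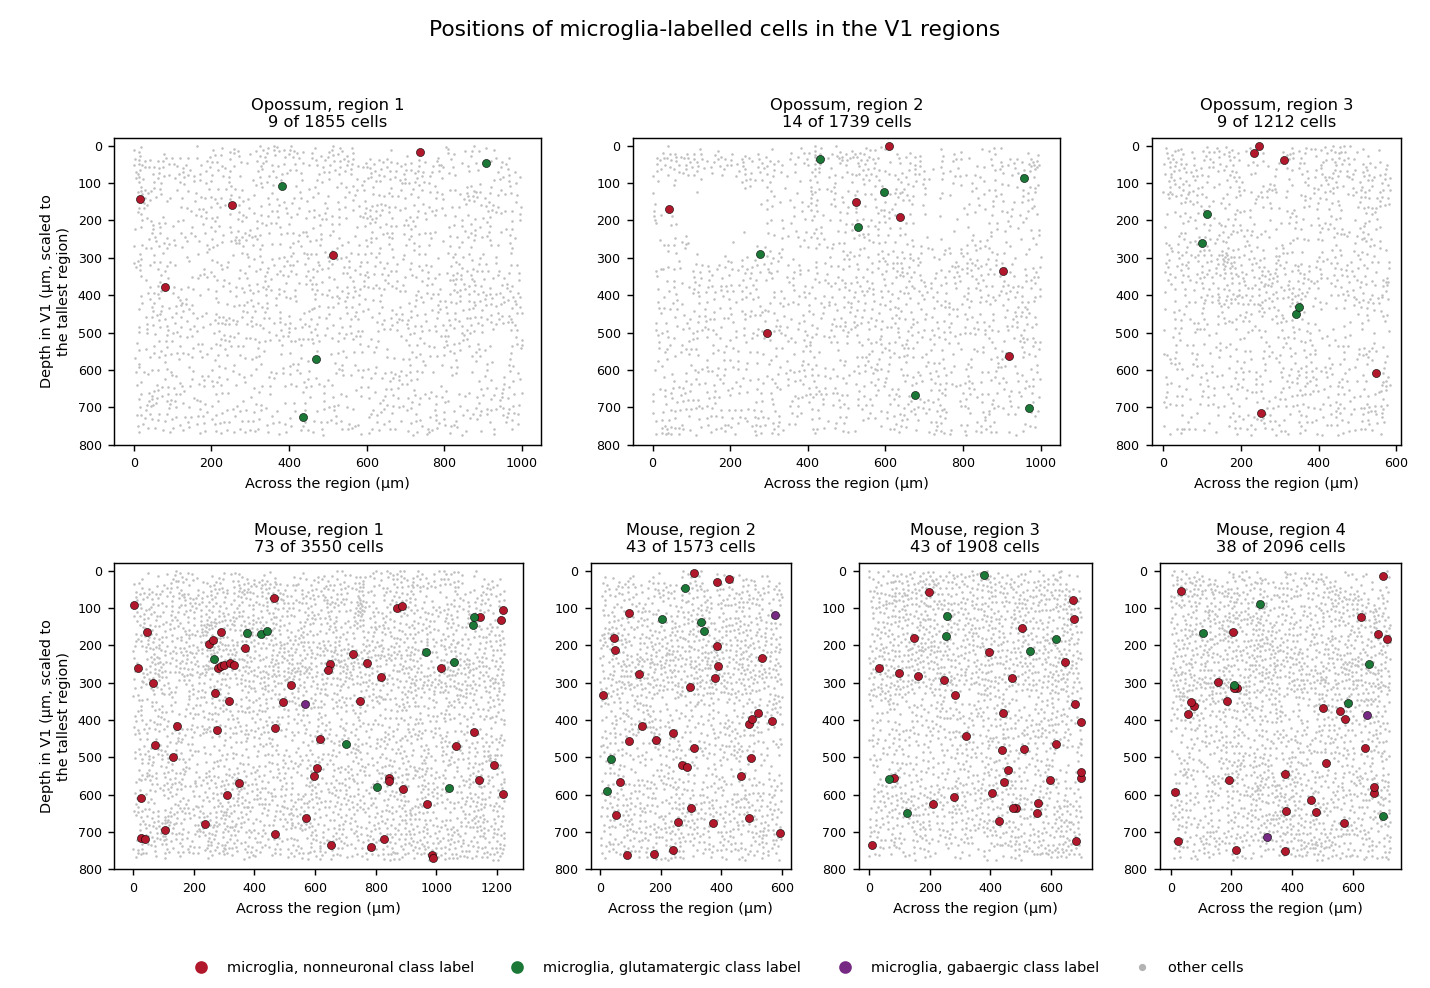
Positions of microglia (large points, coloured by class label) among all other V1 cells (small grey points) in the 3 opossum and 4 mouse regions, as distance across the region and scaled depth, both in µm. Opossum microglia are few and lie mostly above mid-depth, and mouse microglia are spread from top to bottom.

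Spacing was measured as the distance to the nearest cell with the same label. Mouse microglia lay a median of 53.0 µm apart, beside 52.7 µm for the 187 OPCs, whose number was similar, and 43.6 µm for endothelial cells. A second microglia lay within 15 µm of 18 mouse microglia (9.14%), beside 8 OPCs (4.28%) with a second OPC. In opossum the median distance was 149.0 µm for the 32 microglia, 58.3 µm for the 100 OPCs and 76.7 µm for endothelial cells. Medians depend on the number of labelled cells, and a difference between subclasses in this section was not tested.

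The nearest cell of any type was a neuron for 131 of 197 mouse microglia (66.5%, 59.4 to 73.0%) and for 22 of 32 opossum microglia (68.8%, 49.99 to 83.9%). Neurons made up 72.6% and 72.8% of all other cells. Microglia lay a median of 43.4 µm from the nearest endothelial cell in mouse, beside 42.5 µm for OPCs, 45.9 for astrocytes and 46.8 for oligodendrocytes. In opossum the distance was 77.1 µm, beside 81.5, 83.3 and 93.7 µm. The pooled mouse medians of the other subclasses lay within the range of the microglial region medians (37.4 to 60.4 µm). The pooled opossum ones lay above that range (62.1 to 80.7 µm). Within opossum region 3, however, OPCs lay at 72.1 µm and microglia at 80.7 µm.

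Microglial transcripts were also counted in the cells around microglia, which had not been chosen by these genes. In opossum the 133 cells within 25 µm of a microglial cell held 14 UMIs of the 4 markers, a level of 0.874, and the 4641 cells farther away 138 UMIs, a level of 0.205. The ratio was 4.27 (2.27 to 7.40), and it was 3.78, 4.57 and 4.45 in the 3 regions. In mouse the 1219 near cells had a level of 1.27 (209 UMIs) and the 7711 others 0.971, a ratio of 1.31 (1.12 to 1.52), with 1.36, 1.26, 1.34 and 1.19 in the 4 regions. The level near microglia was higher in each region on both chips, but most region intervals included 1. These were opossum regions 1 (3 near UMIs, 0.758 to 11.6) and 3 (2 near UMIs, 0.491 to 19.4) and mouse regions 2, 3 and 4. For the 12 markers, of which opossum had 7, the opossum ratio was 2.72 (1.77 to 4.02), with 4.59, 2.54 and 1.09 in the regions. In mouse, with all 12, it was 1.26 (1.16 to 1.37), with 1.38, 1.10, 1.29 and 1.18. Among neurons alone the 4-marker ratio was 5.50 (2.53 to 10.7) in opossum and 1.30 (1.07 to 1.56) in mouse. Other cell groups did not all show it. In mouse the ratio was 1.18 (0.649 to 2.04) among astrocytes, 1.04 (0.535 to 1.88) among oligodendrocytes, 1.02 (0.431 to 2.19) among endothelial cells and 2.96 (0.853 to 8.35) among OPCs. In opossum the 12 near astrocytes held 0 marker UMIs (0 to 8.44), and the near oligodendrocytes, OPCs and endothelial cells held 1 or 2 each.

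The excess was steepest next to the microglia. In mouse the level was 1.52 within 15 µm, 1.17 from 15 to 25 µm, and 0.967, 0.964 and 1.01 in the bins beyond, to 50 µm, to 100 µm and farther. In opossum it was 1.81 (5 UMIs in 36 cells), 0.679 (9 UMIs in 97 cells), 0.218, 0.185 and 0.211. With a radius of 50 µm the ratios were accordingly smaller, at 1.79 in opossum and 1.08 in mouse.

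Single genes showed the same in part. In opossum, CSF1R gave 8 UMIs near and 41 far (8.20, 3.32 to 17.7), CX3CR1 5 and 78 (2.70, 0.851 to 6.56), and ENSMODG00000006948 45 and 673 (2.81, 2.03 to 3.80). ARHGAP15 and SLCO2B1 gave 0 UMIs near microglia and 77 each farther away, which still allows a ratio of up to 2.06 for either gene. In mouse the highest ratios among the single genes examined were C1qa at 1.74 (1.30 to 2.31), Tgfbr1 at 1.73 (1.15 to 2.53) and C1qc at 1.57 (1.14 to 2.14). Next came Cd33 at 1.55 (0.521 to 3.88), from 6 near UMIs, and Ctss at 1.39 (1.13 to 1.70). P2ry12 was at 1.13 (0.844 to 1.50) and Cx3cr1 at 1.28 (0.949 to 1.71). Below 1 were Mertk at 0.924 (0.658 to 1.27) and Apoe at 0.890 (0.793 to 0.996).

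Other gene lists moved less around mouse microglia. There the astrocyte list was at 1.05 (1.01 to 1.08), the oligodendrocyte list at 0.968, the endothelial list at 1.10 (0.995 to 1.21) and the synaptic list at 0.993 (0.972 to 1.01). In opossum the endothelial list was higher near microglia, at 4.49 against 2.18 (2.06, 1.60 to 2.61), with 2.99, 2.07 and 1.25 in the regions. The astrocyte list was at 0.946, the synaptic list at 0.920 and the oligodendrocyte list at 0.788 (0.720 to 0.860). The near cells were also shallower in opossum, with a median of 930 UMIs against 1335, than in mouse, with 1290 against 1310. The part of transcript spread, of cell segmentation and of unlabelled microglia in the excess of marker UMIs was not tested.

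**Figure D5:**
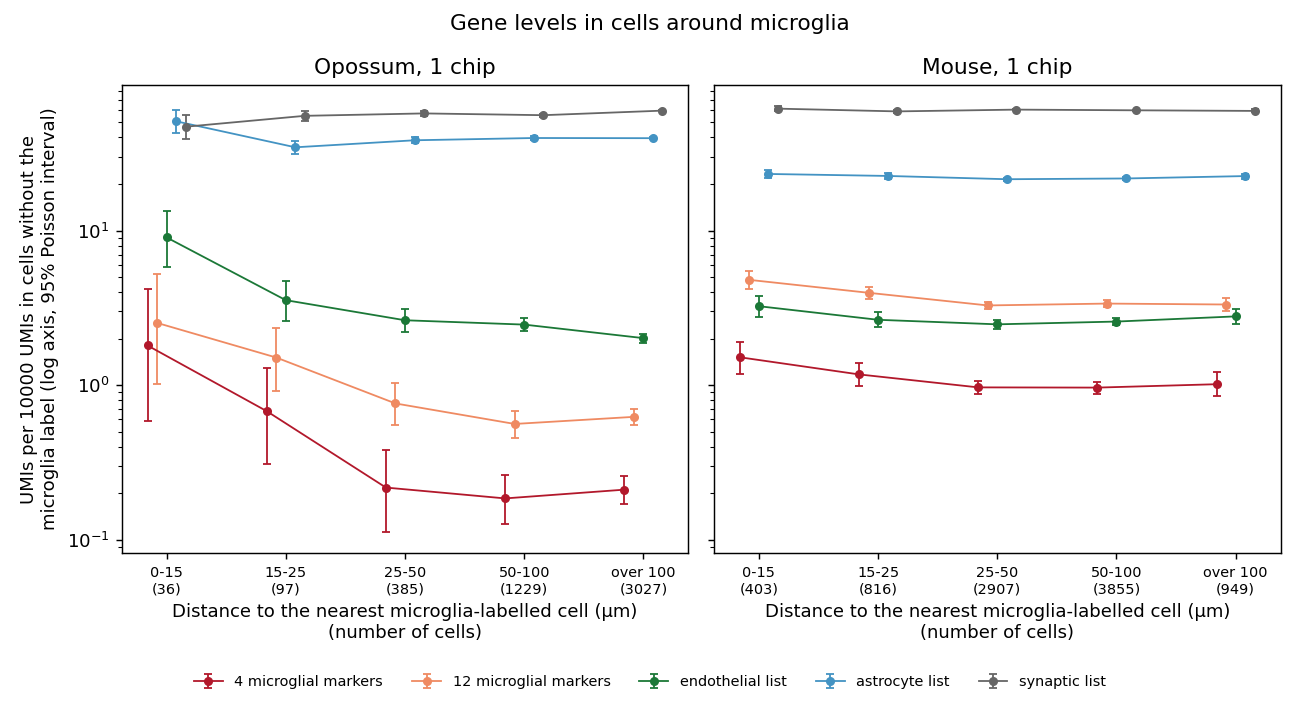
Levels (UMIs per 10000, log axis, exact 95% Poisson intervals) of the microglial markers and of 3 other lists in cells without the microglia label, by distance to the nearest microglia, with the number of cells in each bin. The 4-marker level decreases from 1.81 within 15 µm to about 0.2 beyond 25 µm in opossum and from 1.52 to about 1 in mouse.

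Cells with many marker UMIs mostly lacked the microglia label. In mouse, 76 V1 cells held at least 3 UMIs of the 4 markers, of which 13 were labelled microglia and 63 (82.9%, 72.5 to 90.6%) were not. Of these 63, 13 had no subclass label, 10 were labelled L2/3, 9 L4, 8 astrocytes, 7 L6CT and 6 oligodendrocytes. The share with 3 UMIs was nonetheless higher in microglia, at 6.60% against 0.705% of all other cells. In opossum, 8 cells held at least 3 marker UMIs and 7 of them (87.5%, 47.3 to 99.7%) were not labelled microglia, namely 4 oligodendrocytes, 2 IT_A neurons and 1 astrocyte. The opossum shares were 3.13% of microglia, which is 1 cell, and 0.147% of other cells.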

How the data were processed

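The deposited tables hold counts of UMIs per gene and segmented cell, for which the authors sequenced Stereo-seq chips, processed the reads with their spatial workflow, segmented cells on the stained image and removed shallow cells. Cell Ranger and GRCm39 are also named in the submitters' processing notes. The opossum genome had extended 3′ ends. The authors transferred class, subclass and type labels from single-nucleus data by nearest neighbours in 3 rounds. No other normalization had been applied to the counts. The lowest V1 cell kept had 102 UMIs in opossum and 104 in mouse, and precision is set by the 35867 and 255411 UMIs of microglia.

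Counts were summed over cells and expressed per 10000 UMIs in pandas 2.3.3 under Python 3.11.15, with arrays in numpy 2.4.6. Exact 95% Poisson, Clopper-Pearson and binomial-share intervals came from scipy 1.17.1. Opossum matched 112 and mouse 192 of 192 listed genes in 20 lists. The members and lists were chosen with earlier results of these data known. Besides the lists, the text names the 15 genes with the highest lower bound and the 10 with the lowest upper bound of the ratio, among genes with a symbol and a mean level of at least 1. Some genes that fall under this rule are not reported here. A count of 0 was read as allowing 3 UMIs. Depth ran along the side of each region's smallest rectangle that best separated upper-layer from deep-layer cells (shapely 2.1.2), with 2 spatial units per µm. Figures used matplotlib 3.10.9. No doublet caller was run. On simulated data, 100 genes were raised and 100 lowered 4-fold, of which 99 and 51 in opossum and 100 and 59 in mouse passed the level filter. Of those that passed, all higher genes were called in both species, all lower ones in mouse and 80.4% of lower ones in opossum, where 2.79% of 1795 unchanged genes were called higher and 4.57% lower. Alternatives covered the level, depth per cell, comparison cells, class and round of label, filter, radius and each region left out in turn.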

Additional observations from a re-analysis of the deposited data

Results flagged for a closer look

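Mouse cells also carry a separate type label, which no comparison above uses, and 916 V1 cells had the microglia type. Of these, 763 had another subclass label or none, among them 230 labelled L6CT, 222 with no subclass, 76 labelled L4 and 66 labelled oligodendrocytes. These 763 cells had a 4-marker level of 1.57 (1.35 to 1.81) against 0.953 (0.897 to 1.01) in cells with neither label, and a median of 1484 against 1292 UMIs. They were noted because the signal appears in a column outside the main measurement, above the level of the cells without it. It was below the 4.78 (3.89 to 5.82) of the 153 cells with both microglia labels and the 5.37 (3.51 to 7.87) of the 44 with the microglia subclass alone. For all 12 markers the level was 5.03 in the 763 cells, 3.28 in cells with neither label and 13.9 in those with both.

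The ratio of Apoe in microglia to the other non-neuronal cells was noted because it lay above 1 in opossum, at 1.40, and below 1 in mouse, at 0.729. The difference between species was not tested.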

How the results depend on the processing

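No paired analysis was possible because each species was 1 sample. Of the values for single genes, 1118 moved by less than their interval under another setting, 108 moved further and 15 changed side of 1. The causes were not tested. In opossum, GRN was at 0.780 as a mean over cells and at 0 after thinning, with the non-neuronal class alone and with rounds 1 and 2 alone. Thinning to 300 UMIs left RPP25L, GORASP1, CX3CR1 and TGFBR2 at 0 and put B2M and GFAP at 1.12. The non-neuronal class alone left TGFBR2 and MERTK at 0. In mouse, thinning put Tmem119 at 0.923, Tyrobp at 0 and Lhfpl3 at 1.29. Leaving out 1 region at a time gave 0 (without region 1) to 16.5 for LAPTM5, and, lowest without region 2, 0.760 to 5.39 for CSMD2 and 0 to 3.62 for GRN in opossum. In mouse, C1qb ranged from 0.752 to 3.29 and Fcgr3 from 0.903 to 3.22, both lowest without region 3.

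Counts of genes at least 2-fold apart moved under several settings. In opossum (335 higher and 191 lower), thinning gave 808 higher, the non-neuronal class alone 673 higher and 337 lower, and rounds 1 and 2 alone 512 higher. Minimum levels of 0.5 and 2 gave 843 and 632, and 86 and 45. A minimum of 1 UMI gave 2227 and 11360, and one of 20 UMIs 872 and 2410. In mouse (10 and 10), the mean over cells gave 22 and 18, thinning 116 and 68, equal weight for each comparison subclass 17 and 38, the non-neuronal class alone 16 higher, and rounds 1 and 2 alone 30 and 32. The same 4 filters gave 52 and 77, 1 and 1, 3577 and 12170, and 440 and 1175. Without 1 region at a time, opossum gave 457 to 671 higher and 220 to 260 lower, and mouse 13 to 22 higher and 10 to 21 lower.

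The ratio of the 12 markers, of which opossum had 7, was 1.06 after thinning in opossum. In mouse the 4-marker and 12-marker ratios were 5.22 and 3.96 with equal weights, and 4.88 and 3.98 with rounds 1 and 2 alone. Leaving out regions gave 1.92 (without region 1) to 6.93 (without region 2) for 4 markers and 2.81 to 4.16 for 12 in opossum, and 3.26 to 4.11 and 3.22 to 3.59 in mouse. Microglia of the non-neuronal class alone were 0.354% of opossum and 1.79% of mouse V1 cells, and those of round 1 alone 0.187% and 0.504%. The marker level near over far from microglia was 8.44 at 15 µm and 1.79 at 50 µm in opossum, and 1.53 and 1.08 in mouse. It was 3.52 to 4.50 and 1.29 to 1.33 without 1 region at a time. The median depth was 189.5 to 221.4 µm in opossum and 379.0 to 401.7 µm in mouse. The round and 20-UMI settings, the comparison cells of any class, and the regions left out around microglia were chosen after seeing the data.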
